A study of Mus musculus with 6 samples.

Results

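A group of 9 genes of intestinal goblet cells was examined: Muc2, Tff3, Agr2, Spink4, Fcgbp, Clca1, Spdef, Zg16 and Retnlb. They were picked by name, as products and regulators of goblet cells, and every probe set annotated to 1 of these symbols alone was taken. The 9 genes and the gene lists below were chosen with earlier results of these data known. The 9 genes have 13 probe sets, of 18193 genes measured, and each gene is represented by the probe set whose mean over the 6 arrays was highest. Of these, 6 have 1 probe set, Agr2 and Clca1 have 2 each and Zg16 has 3. Cells of the enzyme-dissociated intestine were sorted by flow cytometry into 3 samples of CCK-EGFP cells, the fluorescent ones, and 3 samples of non-EGFP cells, which were negative for the reporter. All donors were adult Swiss Webster mice carrying the CCK-EGFP transgene, so both groups come from transgenic animals. Cholecystokinin (Cck) is the hormone of the enteroendocrine I cell, and the labels do not say which Cck sequence drives the reporter, from which stretch of intestine the cells came or whether each of the samples stands for its own mouse. The p-values therefore rest on the spread among 3 samples a group, which could be technical, and the number of arrays limits the precision.

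Goblet cells are secretory cells of the intestinal epithelium that store mucus in large granules and release it onto the surface. Muc2 is the gel-forming mucin of this mucus, and Fcgbp, Clca1, Zg16 and Tff3 are secreted with it. Agr2 is an endoplasmic reticulum protein of the disulfide isomerase family that mouse goblet cells need to make Muc2, and Spdef is an Ets-type transcription factor that drives goblet and Paneth cell maturation. Goblet and enteroendocrine cells are both secretory lineages that arise from crypt progenitors through the transcription factor Atoh1. The non-fluorescent fraction was sorted only as negative for the reporter, and its cell types are read here from marker genes alone.

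Values are log2 intensities, on which 1 unit is a doubling, and the median of each array lay at 5.66 to 5.72 for CCK-EGFP cells, against 5.37 to 5.54 for non-EGFP cells. The background level, the 95th percentile of the means of 71 olfactory and vomeronasal receptor genes, was 4.60. The sort was visible in Cck itself, which read 13.52, 12.90 and 13.06 on the CCK-EGFP arrays, against 8.65, 8.35 and 8.89 on the non-EGFP arrays (log2 difference 4.53, limma adjusted p = 0.00019). Among 13 measured enteroendocrine markers, of which Cck is 1, 13 were higher in CCK-EGFP cells, beside 14.0% of all genes. The labels describe both groups as enteroendocrine, but the mean level of those markers was 12.33 to 12.63 in CCK-EGFP cells, against 7.35 to 7.67 in non-EGFP cells. Non-EGFP arrays 1, 2 and 3 and CCK-EGFP arrays 1, 2 and 3 below are the replicates in the order of the labels, and a list of 3 values follows that order.

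The means of 8 of the 9 genes lay above the background level, Retnlb being the exception, and the 9 did not move as a block. Agr2 was higher in CCK-EGFP cells, Muc2 and Spdef were lower, and 6 did not pass the test (limma, two-sided, Benjamini-Hochberg adjusted p under 0.05 over all 18193 genes). Over the whole array 14.0% of genes were called higher and 10.2% lower, 24.1% in either direction, and 1 of 9 higher and 2 of 9 lower are set against those shares. The median log2 difference of the 9 was -0.43, against -0.17 over all genes. On 6 of the 9 genes all 3 CCK-EGFP arrays lay below all 3 non-EGFP arrays, an order found for 28.1% of all genes. The level in a pool of cells cannot tell fewer goblet cells from less goblet RNA per cell.

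**Figure D1:**
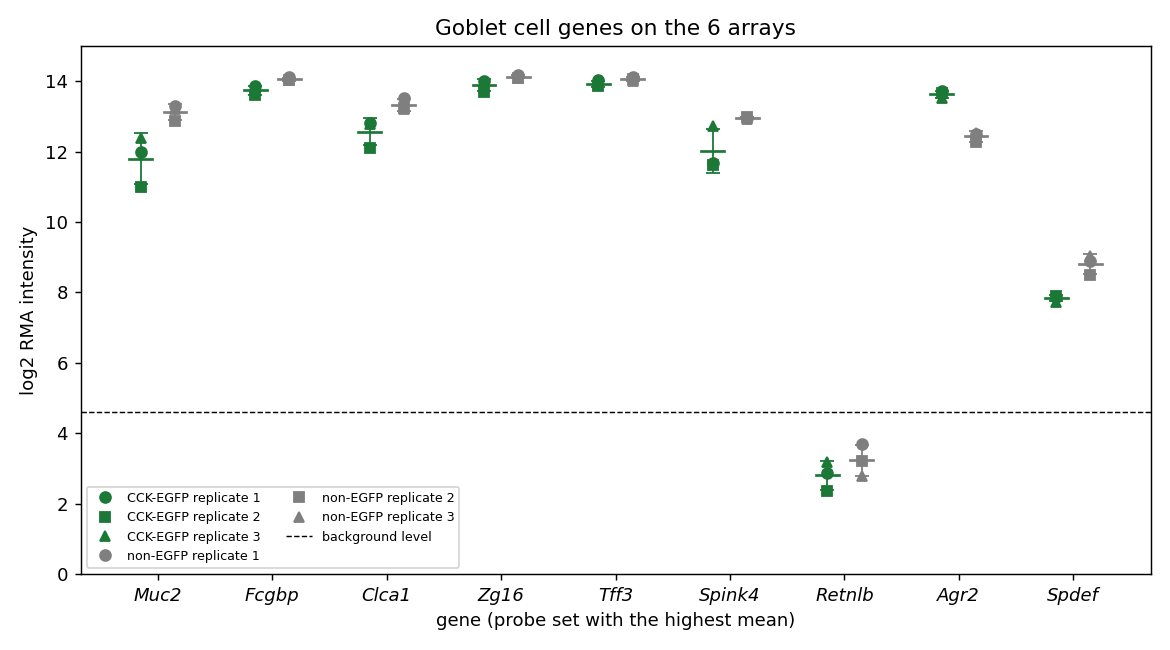
Log2 RMA intensity (vertical axis) of the 9 goblet cell genes, for 3 CCK-EGFP arrays (green, left) and 3 non-EGFP arrays (grey, right), with bars for the mean and SD and marker shapes for replicate numbers. Agr2 lies higher in CCK-EGFP cells, Muc2 and Spdef lower, Tff3, Fcgbp and Zg16 lie near 14 in both groups, and Retnlb lies below the dashed background level of 4.60 on all 6 arrays.

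Among the gel-forming components, Muc2 read 12.00, 11.00 and 12.39 on the CCK-EGFP arrays, against 13.30, 12.86 and 13.20 on the non-EGFP arrays. The groups did not overlap, and the CCK-EGFP arrays were spread over 1.39 units, against 0.44 in non-EGFP cells. The mean was 11.80 ± 0.72 in CCK-EGFP cells, against 13.12 ± 0.23 in non-EGFP cells (SD, n = 3 each). Muc2 fell by 1.33 (SE 0.38, 95% interval -2.23 to -0.42, limma adjusted p = 0.0473), which leaves 39.9% of the non-EGFP level. The call lay close to the threshold. It ended when any 1 array except CCK-EGFP replicate 3 was removed, with adjusted p from 0.0824 to 0.114. It also ended after a second quantile normalization (0.0506) and with every probe set of the array tested on its own (0.0599).

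Clca1, a secreted metalloprotease of mucus that older annotation lists as gob-5 or Clca3, gave 2 different answers from its 2 probe sets. The brighter probe set read 12.80, 12.11 and 12.79 in CCK-EGFP cells, against 13.51, 13.24 and 13.20 in non-EGFP cells. Its groups did not overlap, but the difference of -0.75 (SE 0.25, 95% interval -1.35 to -0.14) did not pass (limma adjusted p = 0.0747). The dimmer probe set read 6.77, 7.09 and 7.76 in CCK-EGFP cells, against 9.26, 9.23 and 9.29 in non-EGFP cells. There the 3 non-EGFP values lay within 0.06 of each other and the CCK-EGFP values were all at least 1.47 lower. In a fit over all probe sets this one differed by -2.05 (limma adjusted p = 0.00636). Averaging the 2 probe sets gave -1.40 for Clca1 (limma adjusted p = 0.00626). The dimmer minus the brighter probe set was -6.03, -5.02 and -5.04 on the CCK-EGFP arrays, against -4.25, -4.01 and -3.90 on the non-EGFP arrays. An exact permutation test of these values gave p = 0.1 (two-sided), the smallest that 3 against 3 allows. The 2 probe sets were compared because they disagreed, so no conclusion is drawn from it.

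The other mucus proteins lay near the top of the scale, where array maxima were 14.34 to 14.46 among named and unnamed probe sets other than controls. Fcgbp, a large mucin-associated protein with von Willebrand domains, read 13.85, 13.61 and 13.77 in CCK-EGFP cells, against 14.11, 14.03 and 14.02 in non-EGFP cells. All 3 CCK-EGFP arrays were lower, by -0.31 in the mean (95% interval -0.72 to 0.10, limma adjusted p = 0.213). Zg16, a small lectin that binds bacterial cell walls, read 14.00, 13.70 and 13.97 in CCK-EGFP cells, against 14.17, 14.09 and 14.10 in non-EGFP cells, with its brightest probe set. Its difference was -0.23 (95% interval -0.66 to 0.20, limma adjusted p = 0.357).

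The 3 probe sets of Zg16 differed by -0.37, -0.23 and -0.03, and the last of them overlapped between the groups. The suffixes of the last 2 (s_at and x_at) mark probe sets whose probes can also bind other transcripts. Tff3, the trefoil peptide of goblet cells, read 14.03, 13.87 and 13.88 in CCK-EGFP cells, against 14.13, 14.06 and 14.00 in non-EGFP cells. These groups overlapped, and the difference was -0.14 (95% interval -0.54 to 0.27, limma adjusted p = 0.550). The intervals of Fcgbp, Zg16 and Tff3 leave room for falls of 0.54 to 0.72, so equal levels were not shown, and saturation at this height can shrink a difference and was not tested.

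Neither peptide gene passed with all arrays. Spink4, a Kazal-type inhibitor-like peptide of goblet granules, read 11.68, 11.62 and 12.74 in CCK-EGFP cells, against 12.95, 12.99 and 12.93 in non-EGFP cells. CCK-EGFP replicate 3 lay apart from the other CCK-EGFP arrays, 0.19 below the lowest non-EGFP array. The difference of -0.94 (SE 0.33) did not pass with all arrays (limma adjusted p = 0.0806). Without CCK-EGFP replicate 3 it was -1.30 and passed (limma adjusted p = 0.0104). Spink4 passed in only 1 of the 6 fits without 1 array (limma adjusted p up to 0.223). Retnlb, a resistin-like peptide best known from the colon and from bacterial or worm exposure, read 2.88, 2.36 and 3.18 in CCK-EGFP cells, against 3.69, 3.22 and 2.80 in non-EGFP cells. All 6 values lay below the background level, the groups overlapped, and no fold is given.

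Agr2 stood apart in sign. Its brighter probe set read 13.71, 13.67 and 13.51 in CCK-EGFP cells, against 12.49, 12.26 and 12.54 in non-EGFP cells. The lowest CCK-EGFP array was 0.96 above the highest non-EGFP array, and the mean was 13.63 ± 0.10 in CCK-EGFP cells, against 12.43 ± 0.15 in non-EGFP cells (SD, n = 3 each). Agr2 was 2.29-fold higher in CCK-EGFP cells (log2 difference 1.20, SE 0.18, 95% interval 0.76 to 1.63, limma adjusted p = 0.00655). The second probe set, of the x_at kind, read 12.91, 12.58 and 12.41 in CCK-EGFP cells, against 11.80, 11.28 and 11.53 in non-EGFP cells, also without overlap, a difference of 1.10. Agr2 was called in all 6 fits that left out 1 array, with adjusted p from 0.0134 to 0.0365. Within an array, Agr2 minus Muc2 was 1.71, 2.67 and 1.12 in CCK-EGFP cells, against -0.82, -0.60 and -0.66 in non-EGFP cells. The difference of 2.52 between the groups adds up the opposite differences of the 2 genes. Its exact permutation test (two-sided, p = 0.1, the smallest that 3 against 3 allows) therefore adds nothing to the tests of the 2 genes.

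Spdef, the transcription factor among the 9, read 7.88, 7.91 and 7.73 in CCK-EGFP cells, against 8.89, 8.50 and 9.03 in non-EGFP cells. All CCK-EGFP arrays lay at least 0.59 below the non-EGFP arrays, and here the CCK-EGFP arrays were the tighter group. The mean was 7.84 ± 0.09 in CCK-EGFP cells, against 8.81 ± 0.28 in non-EGFP cells (SD, n = 3 each), and Spdef fell by 0.97 (SE 0.21, limma adjusted p = 0.0205). Its call ended without any 1 of the CCK-EGFP arrays and without the first non-EGFP array, with adjusted p from 0.0526 to 0.0714. Spdef minus Muc2 within an array was -4.12, -3.09 and -4.66 in CCK-EGFP cells, against -4.42, -4.36 and -4.17 in non-EGFP cells. The groups overlapped and the difference of 0.36 was within the spread of the CCK-EGFP arrays (exact permutation test, two-sided, p = 0.7, where 0.1 is the smallest that 3 against 3 allows).

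**Figure D2:**
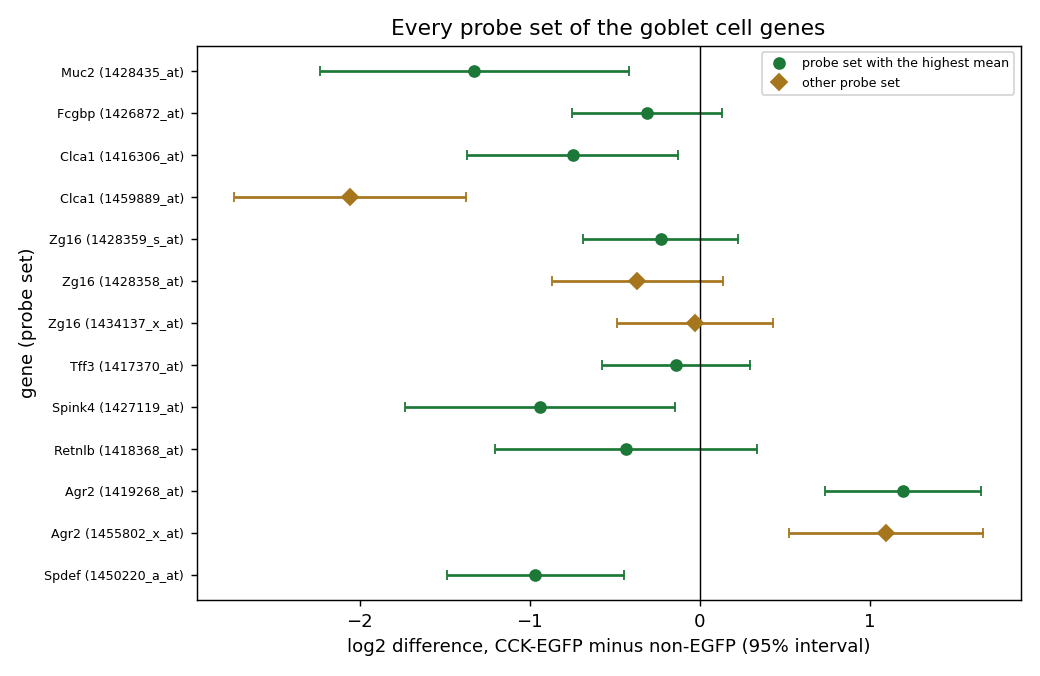
Log2 difference, CCK-EGFP minus non-EGFP, with 95% intervals for all 13 probe sets of the 9 genes, from the fit over all probe sets. Both Agr2 probe sets lie above 0, both Clca1 probe sets lie below it at -0.75 and -2.05, and the 3 of Zg16 lie between -0.37 and -0.03.

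The upstream sequences of the 3 called genes are shown because these genes moved in both directions. The RefSeq promoter table used here (GRCm38.p6) matched 4 of the 9 by symbol, Muc2, Agr2, Fcgbp and Spdef. The 250 bases before the start site are given on the gene's own strand, chr7:141690090-141690339 (plus strand) for Muc2, chr12:35992675-35992924 (plus strand) for Agr2 and chr17:27728952-27729201 (minus strand) for Spdef. Capitals mark TATAA (the core of that promoter element), CAGCTG (the E-box of the kind basic helix-loop-helix factors such as Atoh1 can bind) and GATAA (the core of GATA factors), searched on both strands.
Muc2: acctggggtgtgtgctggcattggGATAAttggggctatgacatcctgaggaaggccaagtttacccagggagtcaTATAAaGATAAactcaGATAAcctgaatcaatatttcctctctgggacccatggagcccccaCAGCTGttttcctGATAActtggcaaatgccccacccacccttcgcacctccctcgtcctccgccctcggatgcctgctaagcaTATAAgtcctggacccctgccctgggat
Agr2: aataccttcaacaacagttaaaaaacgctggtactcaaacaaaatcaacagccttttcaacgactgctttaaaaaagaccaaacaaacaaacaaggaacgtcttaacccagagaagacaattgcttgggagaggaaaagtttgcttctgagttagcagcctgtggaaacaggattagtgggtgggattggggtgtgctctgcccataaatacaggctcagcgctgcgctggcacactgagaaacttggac
Spdef: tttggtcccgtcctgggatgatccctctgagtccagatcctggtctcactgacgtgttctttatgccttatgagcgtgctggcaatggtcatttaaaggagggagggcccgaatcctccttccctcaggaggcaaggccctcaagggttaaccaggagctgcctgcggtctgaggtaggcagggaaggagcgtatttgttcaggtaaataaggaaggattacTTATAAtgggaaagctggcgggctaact

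Muc2 held TATAA with its first base 28 and 174 bases before the start site, CAGCTG at 112 bases, and GATAA at 4 places between 226 and 99 bases before it. Spdef held TATAA at 27 bases, overlapping a match on the other strand at 28 bases, and neither of the other motifs. The Agr2 window held none of the 3. Fcgbp held TATAA at 28 bases and CAGCTG at 208 bases. Of all 32851 promoter entries, 22.8% held TATAA, 13.0% CAGCTG and 22.6% GATAA on either strand in the same 250 bases. These are matches of letters and say nothing of binding in these cells.

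The arrays of a group did not spread alike for all members. CCK-EGFP replicate 2 was the lowest CCK-EGFP array for 7 of the 9 genes, Muc2, Clca1, Fcgbp, Zg16, Tff3, Spink4 and Retnlb, and CCK-EGFP replicate 3 was the lowest for Agr2 and Spdef. Relative to the non-EGFP array of the same number, Muc2 differed by -1.30, -1.86 and -0.81 for numbers 1, 2 and 3, Spink4 by -1.26, -1.36 and -0.19, Clca1 by -0.71, -1.13 and -0.40, and Agr2 by 1.22, 1.40 and 0.96. Replicate 3 gave the smallest difference for these 4 genes, whereas for Spdef it gave the largest, at -1.30 beside -1.01 and -0.59.

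**Figure D3:**
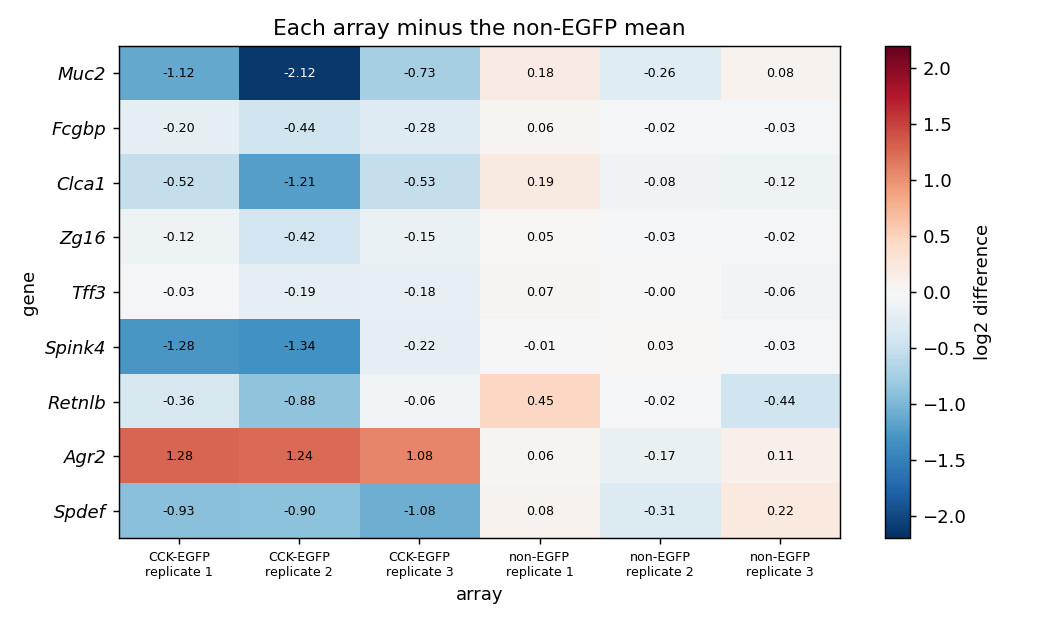
Each array minus the non-EGFP mean (log2, printed in each cell) for the 9 genes, with the CCK-EGFP arrays on the left and the non-EGFP arrays on the right. Blue marks lower and red higher values. The deepest blue is Muc2 on CCK-EGFP replicate 2, the Agr2 cells are red on all 3 CCK-EGFP arrays, and Spink4 is pale on CCK-EGFP replicate 3 alone among the CCK-EGFP arrays.

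Markers of other cells also differed among the arrays of a group, and over all genes 14.0% were called higher and 10.2% lower. The mean level of 19 measured enterocyte markers was 12.04, 12.15 and 12.79 on the CCK-EGFP arrays, against 13.14, 13.26 and 13.17 on the non-EGFP arrays, with 0 called higher and 4 lower (Treh, Slc5a1, Mttp and Dgat2). Blocking on the replicate number gave 3 lower, with the calls of Mttp and Treh lost and that of Slc2a2 gained (limma adjusted p = 0.0457). The enterocyte count was 0 without CCK-EGFP replicate 2, 8 without CCK-EGFP replicate 3 and 1 without any other single array. In the same order, the 1851 lower over all genes were 505, 1384 and 666 to 1962. The mean of 8 Paneth markers was 8.0, 7.65 and 9.16 in CCK-EGFP cells, against 8.60, 7.94 and 9.44 in non-EGFP cells, with 1 called higher, Habp2, and 0 lower (4 lower with the replicate number as a block). For 12 markers of myeloid cells and antigen presentation it was 7.08, 8.02 and 8.84 in CCK-EGFP cells, against 9.06, 9.08 and 9.39 in non-EGFP cells (0 higher and 2 lower, H2-Eb1 and Ctss). With the block Ctss did not pass, and the 4 lower were H2-Eb1, H2-Aa, H2-Ab1 and Lyz2. The myeloid count was 0 without CCK-EGFP replicate 2, 5 without CCK-EGFP replicate 3 and 1 without any other single array. For 11 T and NK lymphocyte markers it was 9.08, 10.13 and 11.32 in CCK-EGFP cells, against 9.70, 10.39 and 11.15 in non-EGFP cells (0 called). Tuft markers ran the other way, with 8 of 13 called higher and means of 7.45 to 8.66 in CCK-EGFP cells, against 5.63 to 6.37 in non-EGFP cells, and 5 were called without CCK-EGFP replicate 1 or 2 or without non-EGFP replicate 2. Of 12 stromal and endothelial markers, 0 were called and 9 had means below the background level. CCK-EGFP replicate 3 thus had the highest enterocyte, Paneth, myeloid and lymphocyte means of its group. It was the highest CCK-EGFP array for 3 of the 9 goblet genes, Muc2, Spink4 and Retnlb, and CCK-EGFP replicate 1 for 5. Non-EGFP replicate 3 had the highest Paneth, myeloid and lymphocyte means of its group and was the lowest non-EGFP array for 5 of the 9. The part of these other cells in the differences of the goblet genes was not tested.

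Transcription factors listed for the goblet lineage, among them the Notch target Hes1, went in both directions. Of 12 measured, 3 were higher, 4 lower and 5 did not pass, with a median of -0.28, beside 14.0% and 10.2% of all genes. The 3 higher were 2 without CCK-EGFP replicate 1, and the 4 lower were 2 without CCK-EGFP replicate 1 and 1 without CCK-EGFP replicate 2. In the same order, the 2540 higher over all genes were 1468, and the 1851 lower were 666 and 505. Atoh1, the factor that commits progenitors to secretory fates, read 5.07, 6.53 and 6.50 in CCK-EGFP cells, against 8.17, 8.15 and 8.03 in non-EGFP cells (log2 difference -2.08, limma adjusted p = 0.0157). It fell together with Creb3l4, a membrane-bound bZIP factor (5.50 ± 0.66 in CCK-EGFP cells, against 7.20 ± 0.04 in non-EGFP cells, SD, n = 3 each, limma adjusted p = 0.0161), which lost its call without CCK-EGFP replicate 2 (0.0631). The forkhead factors Foxa1 and Foxa2, which act in goblet and enteroendocrine cells, were higher. Foxa1 read 12.30, 12.57 and 11.57 in CCK-EGFP cells, against 9.35, 9.16 and 8.19 in non-EGFP cells (3.25, limma adjusted p = 0.0031), and Foxa2 rose by 3.05 (limma adjusted p = 0.0096). The remaining calls, named after their values were seen, were Creb3l1 (1.51), Hes1, the Notch target (-1.36), and Gata6 (-1.03, which did not pass with the block, limma adjusted p = 0.0545), which passed in 5, 4 and 1 of the 6 fits without 1 array. Klf4, a zinc finger factor of differentiated epithelium, stood at 12.66 and 13.09 and the intestinal factor Cdx2 at 12.84 and 12.06 in CCK-EGFP and non-EGFP cells, and neither passed (limma adjusted p = 0.131 and 0.107). Elf3, an Ets-type epithelial factor, stood at 10.19 and 10.33 in CCK-EGFP and non-EGFP cells and did not pass either.

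Enzymes that build the O-linked glycans of mucins were mixed, with 6 of 28 measured higher, 3 lower and 19 not past the threshold, and a median of 0.14. These are 21.4% higher and 10.7% lower, beside 14.0% and 10.2% of all genes. The fucosyltransferase Fut2 read 8.75, 8.48 and 7.89 in CCK-EGFP cells, against 3.07, 3.97 and 4.35 in non-EGFP cells, all 3 of the non-EGFP values below the background level. Against that level Fut2 was at least 13.7-fold higher (limma adjusted p = 0.00083), while its other probe set differed by -0.11. The sialyltransferase St3gal4 fell by 2.90 (7.45, 7.34 and 8.29 in CCK-EGFP cells, against 10.88, 10.20 and 10.70 in non-EGFP cells, limma adjusted p = 0.0022), the sulfotransferase Chst4 by 2.84 and the GalNAc-transferase Galnt10 by 1.82. The Chst4 call ended without CCK-EGFP replicate 2 and without non-EGFP replicate 1 (limma adjusted p up to 0.0592), and Galnt10 without CCK-EGFP replicate 2 (0.0514). Among abundant enzymes that did not pass, B4galnt2 stood at 12.82 and 12.84, Galnt1 at 12.08 and 12.21 and Gcnt3 at 11.74 and 11.43 in CCK-EGFP and non-EGFP cells. The lowest of the 4 B4galnt2 probe sets differed by -1.27, and the mean of the 4 differed by -0.86 and passed (limma adjusted p = 0.0278). The lowest of the 3 Gcnt3 probe sets differed by -0.36 and the lower of the 2 Galnt1 probe sets by -0.74. With the replicate number as a block, 4 enzymes were higher and 4 lower. The 6 higher became 2 without CCK-EGFP replicate 1 or 2 and 3 without CCK-EGFP replicate 3, and the 3 lower became 2 without CCK-EGFP replicate 2 or non-EGFP replicate 1. In the same order, the 2540 higher over all genes became 1468 or 1365 and 2154, and the 1851 lower became 505 or 1021.

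Genes of protein folding in the secretory pathway, in which Agr2 acts, were called higher in 9 of 21 cases and lower in 0, with a median of 0.92, beside 14.0% of all genes called higher. The 9 became 2 without CCK-EGFP replicate 1, 1 without CCK-EGFP replicate 2, 6 without non-EGFP replicate 1 or 2, 2 in a test against a difference of 0.5 and 7 with the replicate number as a block. In the same order of fits, the 2540 higher over all genes became 1468, 1365, 2070 or 1992, 1487 and 2340. Agr3, the paralogue of Agr2, read 12.61, 12.87 and 11.76 in CCK-EGFP cells, against 9.01, 4.52 and 7.14 in non-EGFP cells (log2 difference 5.53, SE 1.07, limma adjusted p = 0.0147). Its non-EGFP values were widely spread, and the call ended without CCK-EGFP replicate 1 or 2 (limma adjusted p = 0.0527 and 0.0597). The disulfide isomerases Pdia6 and Pdia5 rose by 1.66 and 1.64 and the secreted stress factor Manf by 1.32 (limma adjusted p = 0.0092, 0.0222 and 0.026). The Pdia5 call ended without any 1 CCK-EGFP array (up to 0.0789) and that of Manf without CCK-EGFP replicate 1 or 2 (up to 0.0975). P4hb, another disulfide isomerase, stood at 13.04 and 13.31, the chaperone Calr at 12.77 and 12.39 and the translocon subunit Sec61b at 12.50 and 11.90 in CCK-EGFP and non-EGFP cells, and none of these 3 passed.

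**Figure D4:**
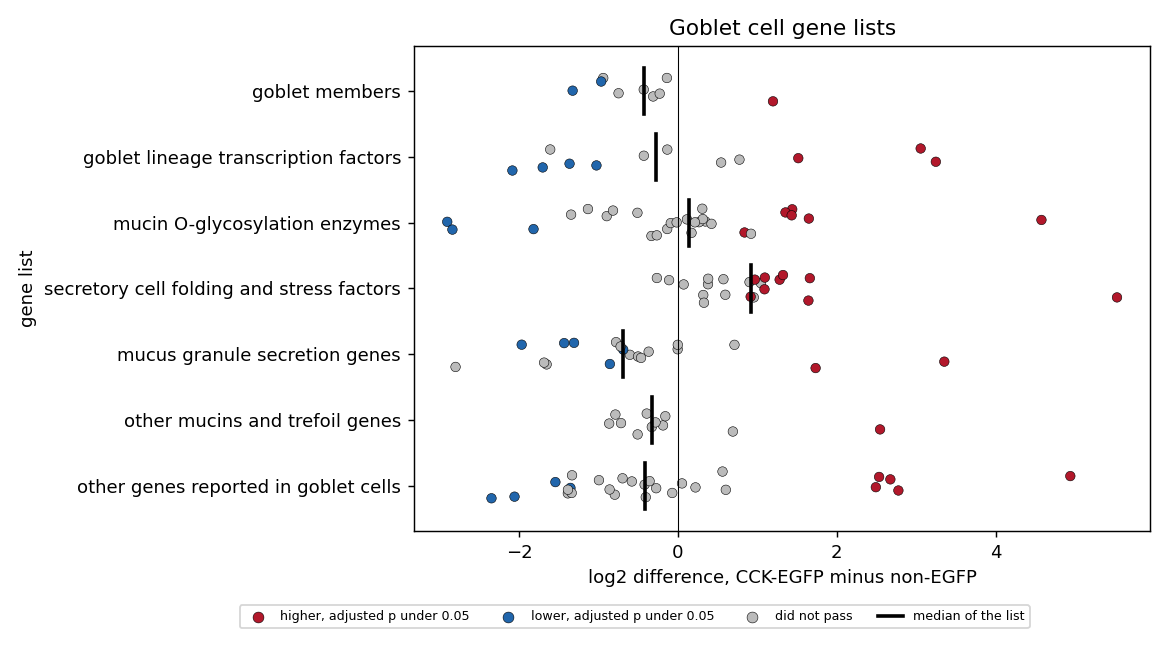
Log2 difference, CCK-EGFP minus non-EGFP, of each measured gene in 7 goblet gene lists, coloured by call, with a black bar at the list median. The folding list has 9 genes called higher and 0 lower and a median of 0.92, while the granule secretion list has 2 higher and 5 lower and a median of -0.69.

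Genes reported to act in mucus granule release were called higher in 2 of 19 cases and lower in 5, with a median of -0.69, beside 14.0% and 10.2% of all genes. The 5 lower became 0 without CCK-EGFP replicate 2, 1 without CCK-EGFP replicate 1, 2 without non-EGFP replicate 2 or 3, and 9 after arrays were centred on their medians. In the same order of fits, the 1851 lower over all genes became 505, 666, 880 or 1962, and 3611. The calcium sensor Syt7 rose by 3.35 and the priming factor Unc13b by 1.73 (limma adjusted p = 0.0005 and 0.0045), and both also serve granule release in endocrine cells. The bicarbonate cotransporter Slc4a4 fell to 8.72, 8.73 and 9.95 in CCK-EGFP cells, against 11.11, 11.08 and 11.10 in non-EGFP cells (-1.97, limma adjusted p = 0.0123), a call that ended without CCK-EGFP replicate 2 (0.0516). The Rab27 effector Sytl2 fell by 1.43 (limma adjusted p = 0.0416, and 0.0539 with the replicate number as a block), a call that also ended without array 1 or 2 of the CCK-EGFP cells and without array 2 or 3 of the non-EGFP cells (up to 0.131). The other lower calls, named after their values were seen, were Snap23 (-1.31), Atg5 (-0.86) and Sytl4, whose CCK-EGFP mean lay below the background level and which did not pass with the block (limma adjusted p = 0.0613). Of the 6 fits without 1 array, Snap23 passed in 4, Atg5 in 1 and Sytl4 in 0. The exocytic membrane proteins Vamp8 (11.41 and 12.02), Stxbp2 (11.34 and 11.70) and Stx3 (11.14 and 11.65 in CCK-EGFP and non-EGFP cells) did not pass. The 4 probe sets of Stx3 differed by -1.34 to -0.49 and the 3 of Stxbp2 by -0.37 to -0.19.

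Among other mucins and trefoil genes, 1 of 11 was called higher and 0 lower, beside 14.0% and 10.2% of all genes. Their median was -0.33. The membrane mucin Muc4 read 8.69, 8.98 and 8.64 in CCK-EGFP cells, against 6.76, 6.27 and 5.65 in non-EGFP cells (2.54, limma adjusted p = 0.003), the opposite sign to Muc2, while the lowest of its 3 probe sets differed by 0.15. The membrane mucins Muc13 and Muc3, which enterocytes also carry, stood at 13.21 and 12.69 in CCK-EGFP cells and at 13.54 and 13.48 in non-EGFP cells and did not pass (limma adjusted p = 0.202 and 0.067). Tff1, the gastric trefoil gene, stood at 4.87 and 5.74 in CCK-EGFP and non-EGFP cells and did not pass.

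Of 27 measured genes reported in goblet cells, 5 were higher, 4 lower and 18 did not pass, with a median of -0.42. Over the whole array 14.0% of genes were called higher and 10.2% lower. The 4 lower of this list were 2 without CCK-EGFP replicate 1 and 6 without CCK-EGFP replicate 3, where the 1851 lower over all genes were 666 and 1384. Reg4, a lectin-type peptide of goblet and enteroendocrine cells, read 14.09, 13.99 and 13.89 in CCK-EGFP cells, against 11.47, 11.39 and 11.51 in non-EGFP cells (2.53, limma adjusted p = 0.00039). Hepacam2, an adhesion molecule of secretory cells, rose by 2.77 and Rap1gap, a Rap1 GTPase activator, by 2.67 (limma adjusted p = 0.0011 and 0.0021). The potassium channel Kcnma1 was at least 13.3-fold higher against the background level (limma adjusted p = 0.0152), but its non-EGFP arrays read 5.82, 2.29 and 2.09, its call ended without CCK-EGFP replicate 1 or 2 (up to 0.0582), and the lowest of its 5 probe sets differed by -0.04. S100a6, a calcium-binding protein (13.25 and 13.03), and Lypd8, which keeps flagellated bacteria off the epithelium (12.66 and 12.93 in CCK-EGFP and non-EGFP cells), did not pass. Guca2a, the guanylin gene of goblet cells and enterocytes, read 10.76, 11.92 and 13.30 in CCK-EGFP cells, against 13.18, 13.50 and 13.45 in non-EGFP cells. The CCK-EGFP arrays were widely spread, with replicate 3 within the non-EGFP range, and Guca2a passed in the fit without it (limma adjusted p = 0.134 with all arrays and 0.0199 without). That was the only 1 of the 6 fits without 1 array in which Guca2a passed (limma adjusted p up to 0.280).

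The genes whose profiles over the 6 arrays were most like those of the called members were found by the root mean square difference of profiles centred on their means, among 12967 genes above the background level. For Muc2 they were Dsc2, Tinag and Tcim (0.16 to 0.17 log2 units). Dsc2 read 11.18, 9.95 and 11.26 in CCK-EGFP cells, against 12.20, 11.73 and 11.84 in non-EGFP cells, with the same low value on CCK-EGFP replicate 2. For Agr2 the closest were Phtf1, Brd3 and Hsph1 (0.04 to 0.08) and for Spdef Rab3gap2, Foxm1 and Usp16 (0.06 to 0.09). These likenesses describe 6 arrays in 2 groups and carry no test.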

How the data were processed

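The 6 samples were total RNA of sorted intestinal cells, amplified with a kit for picogram amounts and labelled with biotin, per the labels' protocols. The authors deposited log2 values of 45101 probe sets, made with RMA per the submitters' processing notes. RMA corrects background and normalizes quantiles between arrays, which can shrink a broad shift between groups. The sources used here do not give its version, options or scale, and the values, from 1.47 to 14.8, were taken as log2. RMA gives no detection call.

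Gene symbols came from the annotation table of the platform, whose symbols may be outdated. Each of 18193 genes was read from its brightest probe set. The fit used limma 3.58.1 (lmFit, eBayes; R 4.3.3), two-sided, with p-values adjusted over all genes, and the fit was tested on simulated data. Other tools were Python 3.11.15, pandas 2.3.3, scipy 1.17.1 and matplotlib 3.10.9. A group mean below 4.60 was raised to it before a fold, which is then a lower bound. The members and lists were chosen with earlier results of these data known. The text names all 9 members, Cck, from each other goblet list up to 4 genes past the threshold by size and the 3 brightest that did not pass, and the 3 genes most like Muc2, Agr2 and Spdef. Of the 6 other goblet lists 118 genes were measured. Deviations from group means correlated at 0.27, 0.16 and 0.22 between arrays of the same number (across genes, which are not replicates) and at -0.25 to -0.01 otherwise, so samples of the same number were taken to be paired. The fit and every printed p-value are unpaired unless the block is named, and the replicate number entered as a block in an alternative fit alone. No sample column was left unused.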

Additional observations from a re-analysis of the deposited data

How the results depend on the processing

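Agr2 was called higher under all 16 alternatives. The number of goblet members called lower, 2 as deposited, was 5 with trended and robust eBayes, 4 with arrays centred on their medians, 1 after a second quantile normalization, 1 with each probe set tested alone and 0 in a test against a difference of 0.5 (treat). In the same order of fits, the 1851 lower over the array were 2090, 3611, 1878, 3285 (probe sets) and 487. Leaving out each array gave 0 to 2, and the 2 without CCK-EGFP replicate 3 were Muc2 and Spink4. Directions of the 9 members did not turn under any alternative, and Retnlb was not tested under the 2 filters on dim genes. With the replicate number as a replicate block, 1 member was higher, Agr2 (limma adjusted p = 0.0238). Lower were 2, Muc2 (0.0356) and Spdef (0.0475, close to the threshold). Of the other genes named by rule Sytl2 alone changed its call with the block.

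Over the array, 2540 higher and 1851 lower became 1487 and 487 with treat, 3981 and 3285 probe sets tested alone, 2102 and 3611 after centring, which moved all differences by 0.25, and 1365 to 2486 and 505 to 1962 without 1 array. The lowest were without CCK-EGFP replicate 2. Of the other goblet lists, 26 higher and 16 lower became 14 and 8 with treat, 21 and 27 after centring, and 13 to 26 and 6 to 19 without 1 array. The lowest values came without CCK-EGFP replicate 1 or 2. The cause was not tested. Genes that did not pass turned sign in a few cases. Elf3 was 0.053 with array weights and -0.38 to 0.13 without 1 array, Gcnt3 -0.12 as the mean of its probe sets, S100a6 -0.031 after centring and B4galnt2 -0.053 to 0.019 without 1 array. Signal over background limits Retnlb alone among the members.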

Other observations

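Further genes of the goblet lists, chosen after their values were seen, passed the test. Wfdc2, a secreted whey acidic protein-type peptide, was higher by 2.49 (limma adjusted p = 0.00162), and 4 genes were lower in CCK-EGFP cells. The chemokine gene Ccl9 stood at 5.87 ± 0.73 in CCK-EGFP cells, against 8.22 ± 0.23 in non-EGFP cells (SD, n = 3 each, limma adjusted p = 0.0085), Fer1l6 at 8.83 and 10.88, the calpain Capn9 at 8.64 and 10.18 and the tryptase Tpsg1 at 5.63 and 6.98 in CCK-EGFP and non-EGFP cells (limma adjusted p = 0.0148, 0.0257 and 0.0104). Of the 6 fits without 1 array, Fer1l6 passed in 5 and Capn9 in 3. Cftr, the chloride channel, stood at 6.63 ± 2.13 in CCK-EGFP cells, against 9.43 ± 0.41 in non-EGFP cells and did not pass (limma adjusted p = 0.0845).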
